A study of Mus musculus with 8 samples.

Results

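Microglia are the resident macrophages of the brain, and the genes described here are 10 transcripts by which they are commonly recognised: C1qa, C1qb, C1qc, Csf1r, Cx3cr1, P2ry12, Trem2, Tyrobp, Aif1 and Tmem119. They were chosen by symbol, as genes of a lineage in which Nex-Cre is not active. They are 10 of the 48709 genes counted in each library, and all 10 had enough reads to enter the test of 16287 genes. C1qb had been singled out from the comparison of the same libraries, so the differences between groups given below for the 10 genes describe these libraries, are given no p-value and support nothing by passing a threshold.

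Microglia arise from yolk sac progenitors and enter the brain from outside the neural lineages. C1q, the recognition molecule of the classical complement pathway, is assembled from A, B and C chains, the products of C1qa, C1qb and C1qc. In the brain it comes largely from microglia, and together with C3 it is known for tagging synapses in the developing visual system. Csf1r is the receptor for Csf1 and Il34 on which microglial survival depends, Cx3cr1 is the receptor for neuronal fractalkine, and P2ry12 is the ADP receptor of ramified, surveying microglia.

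Gene expression was measured by RNA sequencing of total RNA from whole cortex of mice at postnatal day 1 (P1), with 4 control libraries and 4 dcKO_Nex-Cre libraries. By the methods of the study, all mice were on a C57BL6/J background. Controls were heterozygous for the floxed alleles (BAF155 fl/+, BAF170 fl/+) and carried no Cre. In dcKO_Nex-Cre mice the floxed BAF155 and BAF170 genes, Smarcc1 and Smarcc2 in the files, are deleted by Nex-Cre in postmitotic principal neurons. Progenitors, glia, interneurons and microglia of the same tissue keep them. The samples carry only the words control and mutant, the series text adds the double knockout, and neither says whether each library came from a separate animal, so the tests measure the spread between these samples. The control arm has no Cre, so an effect of the Cre allele and of the deletion cannot be told apart. In RNA of whole tissue, a lower level from fewer cells of a type and from less RNA per cell also cannot be told apart.

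The libraries held between 17958641 and 35191912 counted reads and detected between 23596 and 24221 genes. Levels are given as CPM (counts divided by library size, scaled by the trimmed mean of M values, TMM). Smarcc2 fell by 0.81 on the log2 scale (edgeR quasi-likelihood test, adjusted p = 0.00267, n = 4 and 4) and Smarcc1 fell by 0.53 (adjusted p = 0.0348), and in both genes every dcKO_Nex-Cre library was below every control. Control 2 and dcKO_Nex-Cre 4 stood apart from their groups, with 6.87% and 6.15% of their reads on mitochondrial genes against 2.33% to 4.24% in the other 6 libraries. File names carry a lane tag, 2 for all controls and for dcKO_Nex-Cre 1 and 2 but 8 for dcKO_Nex-Cre 3 and 4, so within lane tag 8 there is no control. Each of the 10 genes was read in every library, with 28 to 1159 counts. The summed level of 10 lymphoid markers was 1.67 to 2.19 CPM in control and 1.45 to 2.19 CPM in dcKO_Nex-Cre cortex, and that of 12 monocyte and neutrophil markers 2.16 to 3.77 and 1.91 to 5.52 CPM, against 120 to 139 and 128 to 164 CPM for the sum of the 10 microglial genes.

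The C1q genes lie side by side on chromosome 4 (GRCm38, annotated by GENCODE), C1qb at chr4:136880129-136886187, C1qc at chr4:136889804-136893065 and C1qa at chr4:136895917-136898803. The 250 bases ahead of the RefSeq start of C1qb and C1qc, whose levels lay higher in dcKO_Nex-Cre cortex, are shown beside those of P2ry12, whose level lay lower. Each is written on the strand of its gene (the minus strand), 5′ to 3′, from RefSeq on GRCm38.p6, for C1qb from chr4:136886201-136886450, for C1qc from chr4:136892915-136893164 and for P2ry12 from chr3:59262986-59263235. Capitals mark the word GAGGAA, searched on both strands (TTCCTC on the strand shown). It is one form of the site recognised by PU.1, the Ets factor that specifies macrophages.
C1qb: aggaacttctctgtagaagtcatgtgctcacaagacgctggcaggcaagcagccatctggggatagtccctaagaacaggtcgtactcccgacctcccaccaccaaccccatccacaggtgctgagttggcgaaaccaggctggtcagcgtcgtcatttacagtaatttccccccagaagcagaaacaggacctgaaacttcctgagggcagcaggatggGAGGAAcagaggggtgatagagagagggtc
C1qc: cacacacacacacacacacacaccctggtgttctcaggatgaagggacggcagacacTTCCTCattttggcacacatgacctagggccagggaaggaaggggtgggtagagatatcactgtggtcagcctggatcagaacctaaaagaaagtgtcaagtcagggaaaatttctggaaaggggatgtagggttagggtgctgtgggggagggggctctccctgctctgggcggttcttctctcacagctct
P2ry12: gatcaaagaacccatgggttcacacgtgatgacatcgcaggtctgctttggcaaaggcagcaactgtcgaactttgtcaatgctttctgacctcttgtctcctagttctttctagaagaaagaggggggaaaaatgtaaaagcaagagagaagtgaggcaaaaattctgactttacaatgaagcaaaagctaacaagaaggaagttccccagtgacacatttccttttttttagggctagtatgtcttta
RefSeq promoters were at hand for 6 of the 10 genes, and 4 of them held the word. It lay 30 bases before the start in C1qb, 193 in C1qc, 7 in Aif1 and 40 in Trem2, counted to the first base of the match. The windows of Cx3cr1 and P2ry12 did not hold this word, but shorter or variant forms of the site were not searched. Of 32851 promoters of the same length 23.3% held the word, so it is a frequent one. A match is a run of letters and no evidence of binding, and these windows were not measured in the series.

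All 3 C1q chains had higher mean levels in dcKO_Nex-Cre cortex, P2ry12 had a lower one, and the other 6 genes differed little, with log2 fold changes from -0.14 to 0.20. C1qb was read at 20.5, 19.8, 18.6 and 21.8 CPM in control 1 to 4 and at 25.9, 27.1, 31.0 and 27.2 CPM in dcKO_Nex-Cre 1 to 4. The groups did not overlap, with every mutant library above every control. The mean was 20.2 ± 1.35 CPM in control and 27.8 ± 2.22 CPM in dcKO_Nex-Cre cortex (SD, n = 4 each), a log2 fold change of 0.46 with a standard error (SE) of 0.090. In the fit over all genes 0.884% of genes tested were called at an adjusted p of 0.05 and 0.375% were called higher. Of the 10 genes C1qb alone was among them, and since it was picked from this comparison nothing is read from that.

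C1qc, the C chain, was at 15.5, 14.3, 13.8 and 14.4 CPM in control and at 20.6, 21.6, 23.6 and 16.6 CPM in dcKO_Nex-Cre 1 to 4. Again no library of one group reached the other, though dcKO_Nex-Cre 4 came close to control 1. Its log2 fold change was 0.51 (SE 0.11). C1qa, the A chain, was at 13.3, 12.96, 13.2 and 14.9 CPM in control and at 16.2, 17.3, 20.2 and 13.8 CPM in dcKO_Nex-Cre 1 to 4, with a log2 fold change of 0.31 (SE 0.12). Here dcKO_Nex-Cre 4 fell inside the control range and the other 3 mutant libraries lay above it.

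In the opposite direction, P2ry12 was at 12.4, 11.7, 12 and 12.4 CPM in control and at 9.29, 7.20, 8.99 and 6.95 CPM in dcKO_Nex-Cre 1 to 4. Controls were tightly grouped and every mutant library lay below them. The mean went from 12.1 ± 0.32 to 8.11 ± 1.20 CPM (SD, n = 4 each), 67.0% of control, for a log2 fold change of -0.57 (SE 0.12). Thus 3 of the 10 genes had groups that did not overlap, C1qb and C1qc higher and P2ry12 lower. Over all genes tested 3.99% had such groups with the mutant libraries higher and 4.01% with them lower, and since C1qb was picked from this comparison nothing is read from the count. The related purine receptor P2ry13, named after its values were seen, was at 4.33 to 5.95 CPM in control and 3.81 to 4.81 CPM in dcKO_Nex-Cre cortex (log2 fold change -0.30, SE 0.15, edgeR adjusted p = 0.404).

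**Figure D1:**
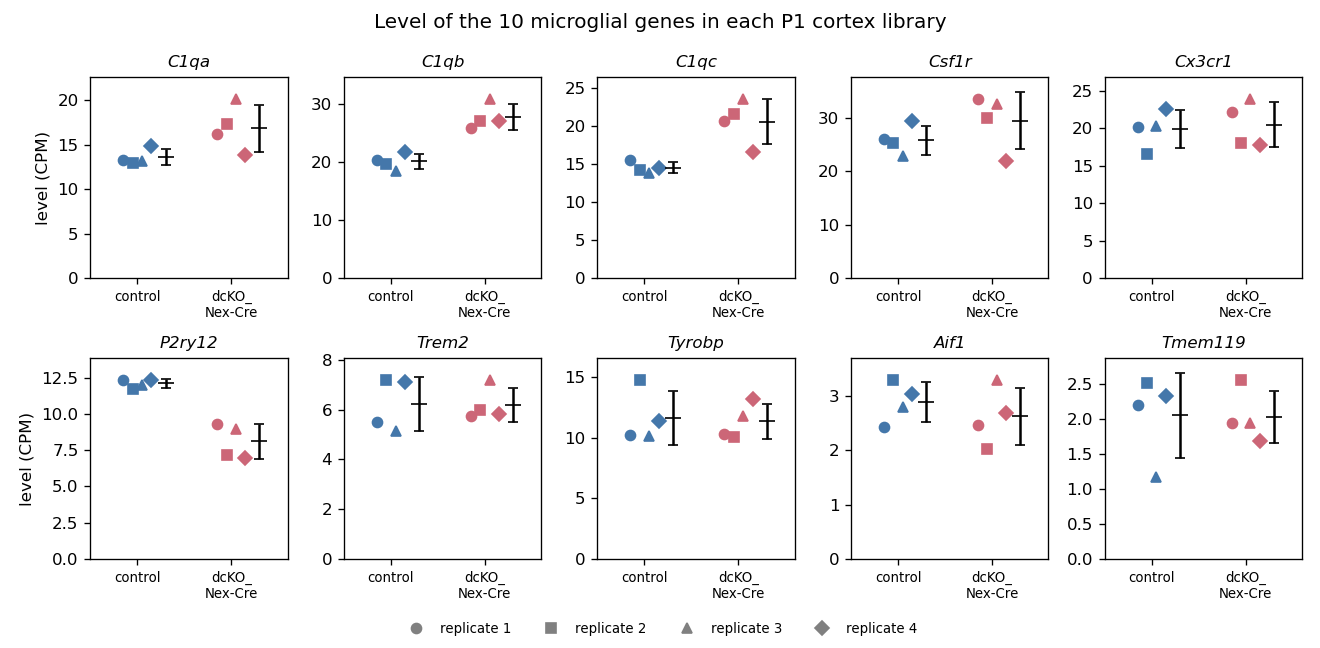
Level of each of the 10 microglial genes (CPM, linear axes from 0) in the 4 control (blue) and 4 dcKO_Nex-Cre (red) libraries, with marker shape for the replicate number and the mean with its SD in black. For C1qb and C1qc the red points lie above all blue points, for P2ry12 they lie below, and in the other 7 panels the groups overlap.

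Csf1r had 25.9, 25.2, 22.8 and 29.3 CPM in control and 33.6, 29.9, 32.6 and 21.9 CPM in dcKO_Nex-Cre 1 to 4. Of the mutant libraries, 3 were above all controls and dcKO_Nex-Cre 4 was below all of them, so that the log2 fold change of 0.20 had an SE of 0.13. Cx3cr1 was at 16.5 to 22.6 CPM in control and 17.8 to 23.9 CPM in the mutant (log2 fold change 0.05, SE 0.13). The receptors for colony stimulating factor and fractalkine thus had overlapping groups.

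Trem2, a lipid-sensing surface receptor, signals through the adaptor encoded by Tyrobp. Trem2 was at 5.13 to 7.22 CPM in control and 5.76 to 7.21 CPM in dcKO_Nex-Cre cortex, a mean of 6.24 ± 1.09 against 6.19 ± 0.69 CPM (SD, n = 4 each). Tyrobp was at 10.1 to 14.8 CPM and 10.1 to 13.2 CPM, with control 2 and dcKO_Nex-Cre 4, the libraries rich in mitochondrial reads, highest in their groups. The log2 fold changes of the receptor and its adaptor, -0.01 and -0.04, were each a fraction of their SE of 0.15.

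Aif1, which encodes the actin-binding protein Iba1, and Tmem119, a membrane protein that appears as microglia mature, were the least counted of the 10. Aif1 was at 2.42 to 3.28 CPM in control and 2.03 to 3.30 CPM in dcKO_Nex-Cre cortex (log2 fold change -0.14, SE 0.19). Tmem119 was at 1.17 to 2.51 and 1.68 to 2.56 CPM, a mean of 48.2 counts a library, and its SE of 0.25 is the widest of the 10.

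**Figure D2:**
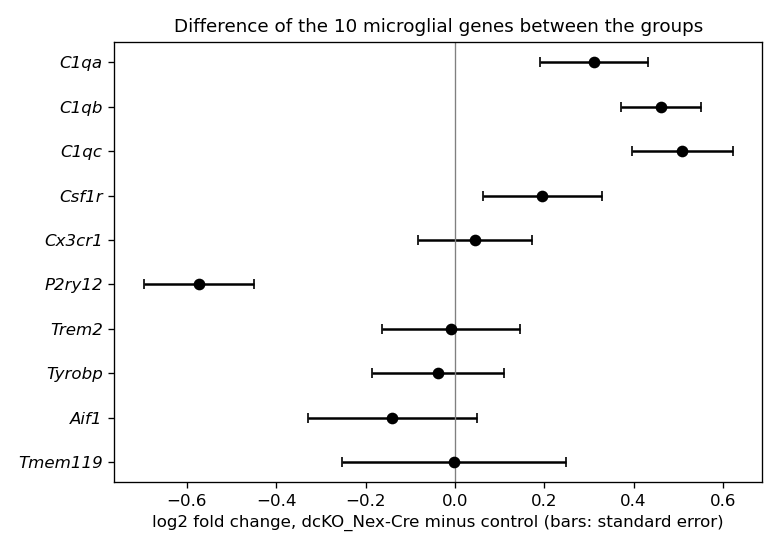
Log2 fold change (dcKO_Nex-Cre minus control) of the 10 genes, with bars for the standard error from the fit over all genes. C1qa, C1qb and C1qc lie between 0.31 and 0.51, P2ry12 lies at -0.57, and the 6 other genes lie between -0.14 and 0.20.

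Over the 10 genes, 5 log2 fold changes were positive and 5 negative, and their median was 0.02 against 0.0043 for all genes tested. A ratio taken within a library does not depend on how libraries were scaled. The summed CPM of the 6 other genes (Csf1r, Cx3cr1, Aif1, Tmem119, Trem2 and Tyrobp) was 62.2 to 75.8 in control and 63.1 to 80.7 in dcKO_Nex-Cre cortex. The C1q chains together amounted to 0.743, 0.676, 0.732 and 0.675 of that sum in control 1 to 4 and to 0.823, 0.961, 0.925 and 0.913 of it in dcKO_Nex-Cre 1 to 4. P2ry12 amounted to 0.186, 0.168, 0.193 and 0.163 of it in control and to 0.122, 0.105, 0.111 and 0.110 in dcKO_Nex-Cre cortex. Both ratios separated the groups, including dcKO_Nex-Cre 4, whose C1qa and Csf1r levels had not.

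Set against each other, the C1q chains summed to 3.79 to 4.14 times the CPM of P2ry12 in control and to 6.74 to 9.15 times in dcKO_Nex-Cre cortex. The mean ratio was 3.98 ± 0.14 in control and 8.12 ± 1.01 in the mutant (SD, n = 4 each). The members of these ratios were grouped after their values were seen, so the ratios describe the libraries and were not tested.

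**Figure D3:**
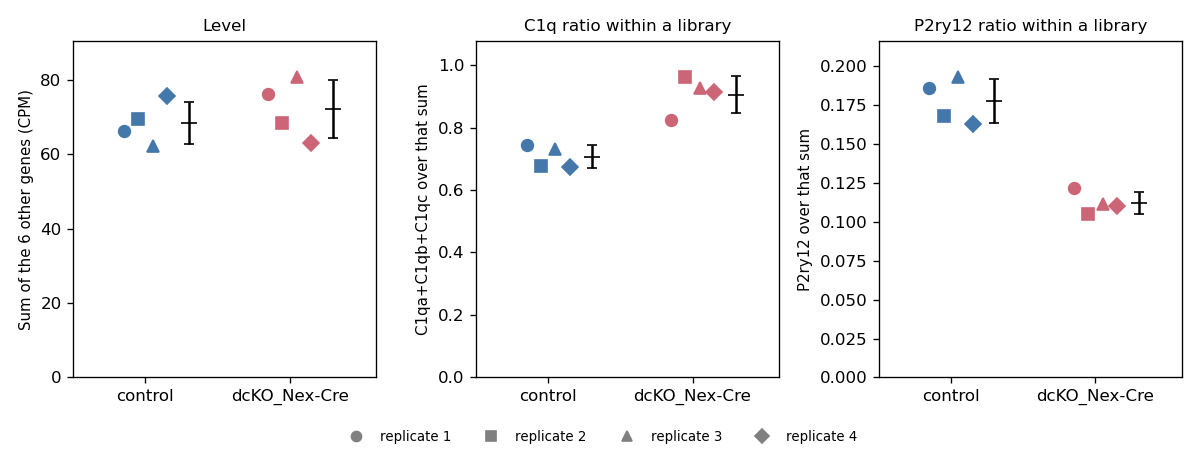
For each library, the summed CPM of the 6 other microglial genes (left), the C1q chains over that sum (middle) and P2ry12 over that sum (right), with axes from 0 and the mean with its SD in black. The sums overlap between groups, whereas the C1q ratio is 0.675 to 0.743 in control and 0.823 to 0.961 in dcKO_Nex-Cre cortex, and the P2ry12 ratio is 0.163 to 0.193 and 0.105 to 0.122.

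Levels of different genes were compared as CPM per kilobase of merged exons, counting every annotated exon of a gene. In control cortex C1qb (18.5 ± 1.24 CPM per kilobase, SD, n = 4) and Tyrobp (17.4 ± 3.30) led and did not differ beyond their spread, followed by C1qa (13.1 ± 0.84) and C1qc (7.50 ± 0.38). P2ry12 (4.75 ± 0.12), Csf1r (4.47 ± 0.47) and Cx3cr1 (4.41 ± 0.55) came next, within each other's spread. Aif1 (1.88 ± 0.24), Trem2 (1.26 ± 0.22) and Tmem119 (0.887 ± 0.26) were lowest, the last pair within a spread of each other. The 4946 bases of merged exon annotated for Trem2 lower its value, as the 1931 annotated for C1qc lower that of C1qc. In dcKO_Nex-Cre cortex C1qb stood at 25.5 ± 2.04 CPM per kilobase, above Tyrobp at 17.0 ± 2.22, and P2ry12 at 3.18 ± 0.47 lay below both Csf1r at 5.10 ± 0.92 and Cx3cr1 at 4.54 ± 0.68.

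Since the assembled protein takes A, B and C chains in equal number, the balance among their transcripts was also computed per kilobase. C1qb made up 46.3% to 48.0% of the C1q transcripts in control and 47.3% to 53.3% in dcKO_Nex-Cre cortex. C1qa made up 32.27% to 34.3% in control and 28.3% to 32.26% in dcKO_Nex-Cre cortex, so its share was lower in every mutant library, in dcKO_Nex-Cre 3 only just. C1qc made up 17.9% to 20.2% and 18.3% to 21.4%. The 1931 bases of merged exon annotated for C1qc, against 1040 for C1qa and 1088 for C1qb, lower its share. In CPM its control mean was 14.5, above the 13.6 of C1qa, so the order of these shares depends on the annotated lengths. The most unequal library was dcKO_Nex-Cre 4, with 53.3% C1qb and 28.3% C1qa.

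Over the 15 other ways of processing or selecting libraries, the log2 fold change of C1qb ran from 0.39 to 0.50, that of C1qc from 0.44 to 0.60, that of C1qa from 0.22 to 0.39 and that of P2ry12 from -0.65 to -0.51. With 1 library left out, C1qb remained past the threshold in 1 of 8 fits, the one without dcKO_Nex-Cre 4, where C1qa, C1qc and P2ry12 were past it too, which is given as a description like the other values of these genes. Without both libraries rich in mitochondrial reads, a choice made after seeing the data, the same 4 genes were past it, with C1qb at 0.47. The fit without dcKO_Nex-Cre 4 called 1275 genes in all and the fit without both libraries 1794, against 144 with every library. Within lane tag 2, with 4 controls and 2 mutants, C1qb was at 0.39, C1qc at 0.54, C1qa at 0.30 and P2ry12 at -0.55, and C1qc was past the threshold in place of C1qb.

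The fit called none of 47 further microglial genes at an adjusted p of 0.05 with edgeR, and DESeq2 also called 0. At an unadjusted p under 0.05 there were 7 higher and 1 lower, where 6.59% and 7.05% of all genes tested passed. Their median log2 fold change was 0.19, and 33 of 47 were positive. Groups did not overlap in 5 higher and 0 lower, against 3.99% and 4.01% of all genes tested. The summed level of the 47 genes was 466 to 507 CPM in control and 513 to 570 CPM in dcKO_Nex-Cre cortex, without overlap. Abundant genes weigh most in such a sum. Among these, the mean of Lgmn was 87.0 CPM in control and 109 CPM in dcKO_Nex-Cre cortex, and that of Coro1a 85.8 and 76.8 CPM. Lgmn, a lysosomal protease, had the smallest adjusted p at 0.166, with 77.6 to 99.0 CPM in control and 99.7 to 122 CPM in dcKO_Nex-Cre cortex (log2 fold change 0.33, SE 0.095). Coro1a, an actin regulator, was at 77.1 to 92.5 and 64.8 to 90.3 CPM, and Sall1, a factor of microglial identity that neural progenitors also express, was at 31.3 to 37.1 and 33.3 to 43.8 CPM. The cells from which these reads came were not determined.

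Among genes named after their values were seen, the endosomal receptor Tlr7 had a log2 fold change of 0.68 (SE 0.20, edgeR adjusted p = 0.175) and the lysosomal membrane protein gene Laptm5 one of 0.40 (SE 0.14, adjusted p = 0.234). Ptprc, the CD45 phosphatase of all leukocytes, lay on the other side at -0.61 (SE 0.23, adjusted p = 0.277). Without dcKO_Nex-Cre 4, 3 of the 47 passed, Lgmn, Laptm5 and Sall1, all higher. That fit called 1275 genes in all, against 144 with every library, so nothing is read from this count.

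**Figure D4:**
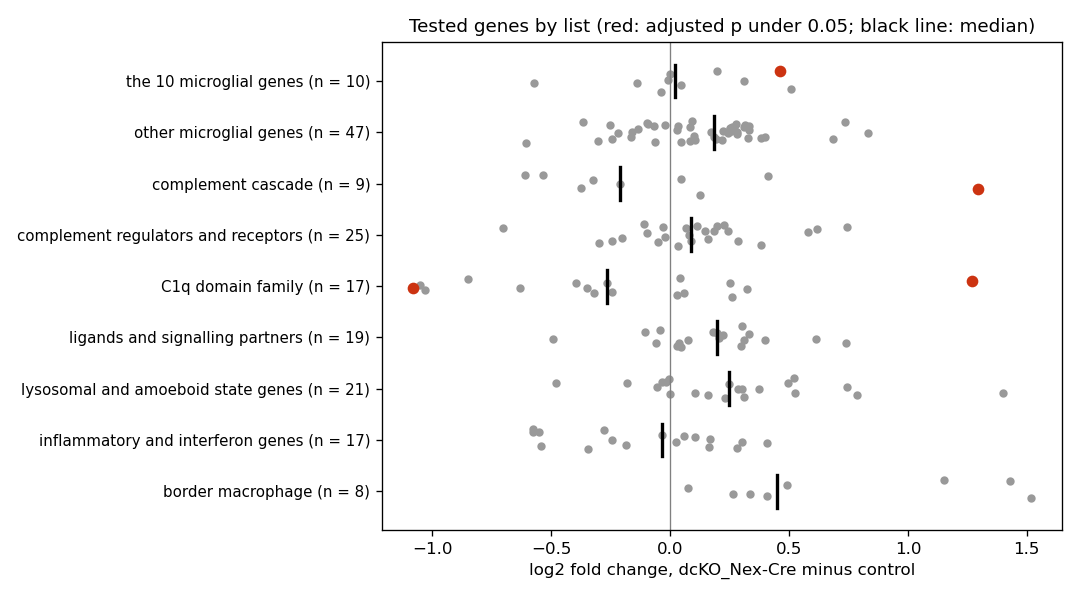
Log2 fold change (dcKO_Nex-Cre minus control) of each tested gene in 9 lists, 1 point a gene with random vertical spread, red where the edgeR adjusted p was under 0.05 and a black line at the median of each list. The red points are C1qb among the 10 genes, C4b in the complement cascade, and Cbln2 (right) and Cbln4 (left) in the C1q domain family. The other lists hold no red point.

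Downstream of C1q, 26 genes of the complement cascade were listed and 9 had enough reads to test. Of these, C4b alone was called, by edgeR and by DESeq2. Of all genes tested edgeR called 0.375% higher, and DESeq2 called 494 genes in all. C4b, the substrate that the C1 complex cleaves, was at 0.96, 1.53, 1.33 and 1.32 CPM in control and at 2.49, 3.25, 4.41 and 2.47 CPM in dcKO_Nex-Cre 1 to 4. Every mutant library lay above every control, as in 3.99% of all genes tested. The gene rose by 1.30 on the log2 scale (SE 0.24, edgeR adjusted p = 0.0355). Its near-identical copy C4a, named after its values were seen, was at 1.21 to 2.84 and 1.34 to 2.64 CPM, and because the counting could split reads between the copies, the value of each is uncertain. The C4b call was lost with the replicate block and within lane tag 2, and of 8 fits without 1 library it passed in 2, those without dcKO_Nex-Cre 1 and without dcKO_Nex-Cre 4.

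C3, on which the activation routes converge, was read at no more than 0.62 CPM in any library, 0.42 to 0.62 in control and 0.22 to 0.42 in dcKO_Nex-Cre cortex (log2 fold change -0.61, SE 0.31, adjusted p = 0.403, named after its values were seen). Masp1, the gene of a protease of the lectin route, was the most abundant of the cascade at 43.8 to 69.2 and 56.7 to 72.7 CPM, and its log2 fold change was 0.05. Cfp, or properdin, was at 7.09 to 11.8 and 5.78 to 9.81 CPM, Colec12, a scavenger collectin, at 3.29 to 5.15 and 3.33 to 8.35 CPM, and C8g of the attack complex at 2.47 to 4.32 and 1.94 to 3.03 CPM. None of these 3 was called, and their groups overlapped.

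Of 32 complement regulators and receptors 25 were tested, and 0 were called by edgeR or DESeq2. At an unadjusted p under 0.05, 2 were higher (C3ar1 and Sez6) and 1 lower (Cd55), where 6.59% and 7.05% of all genes tested passed. Calr and Lrp1, which bind C1q-coated material as receptor and co-receptor, were at 433 to 515 and 374 to 473 CPM, and at 267 to 324 and 268 to 378 CPM. Sez6, a neuronal protein with complement control domains, was at 365 to 399 CPM in control and 399 to 483 CPM in dcKO_Nex-Cre cortex (log2 fold change 0.23, SE 0.080, adjusted p = 0.251), and its relative Sez6l had a log2 fold change of -0.03. Cd55 and C3ar1 were named after their values were seen. C3ar1, the receptor for the C3a fragment on microglia, had the smallest adjusted p of the list at 0.244, with a log2 fold change of 0.62 (SE 0.22).

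The globular domain of C1q is shared by a family of secreted proteins, of which 26 genes were listed and 17 tested. Cbln2, a synapse organiser released by neurons, was at 25.4, 21.98, 19.6 and 30.8 CPM in control and at 61.7, 37.6, 64.3 and 72.4 CPM in dcKO_Nex-Cre 1 to 4, and it rose by 1.27 on the log2 scale (SE 0.19, edgeR adjusted p = 0.0173). Its relative Cbln4 was at 9.28, 7.05, 9 and 9.42 CPM in control and at 6.05, 3.22, 3.63 and 3.36 CPM in the mutant, and it fell by 1.08 (SE 0.21, adjusted p = 0.0399). The groups of neither gene overlapped. No other gene of the list was called, where 0.375% of all genes tested were called higher and 0.510% lower. Cbln1 was at 26.2 to 34.2 and 35.9 to 42.4 CPM (log2 fold change 0.32, adjusted p = 0.186), C1qtnf4 at 11.4 to 15.8 and 9.12 to 10.7 CPM and C1qtnf6 at 8.97 to 13.3 and 9.64 to 15.7 CPM. At an unadjusted p under 0.05 there were 2 higher and 5 lower of the 17, where 6.59% and 7.05% of all genes tested passed. Groups did not overlap in 3 higher and 3 lower, against 3.99% and 4.01% of all genes tested. The median of the list was -0.27, against 0.0043 for all genes tested.

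Ligands and signalling partners of the receptors numbered 24, of which 22 were in the files and 19 tested. With edgeR 0 were called and 4 had an unadjusted p under 0.05, all higher (Il34, Grn, Csf1 and Entpd1, named after their values were seen). DESeq2, which called 494 genes in all against 144 with edgeR, called 1 of the list, Il34. Of all genes tested 6.59% were higher at an unadjusted p under 0.05. Of the Csf1r ligands, both named after their values were seen, Il34 was at 3.02, 2.51, 1.96 and 2.46 CPM in control and at 3.97, 4.13, 4.49 and 4.04 CPM in dcKO_Nex-Cre 1 to 4, with a log2 fold change of 0.74 (SE 0.16, adjusted p = 0.0679). Csf1 was at 10.6 to 13.4 and 13.8 to 17.1 CPM (log2 fold change 0.30, SE 0.11, adjusted p = 0.268). In both ligands every mutant library lay above every control, as in 3.99% of all genes tested, and neither passed the edgeR test.

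Cx3cl1, the fractalkine that binds Cx3cr1, also named after its values were seen, was at 40.7 to 66.0 CPM in control and 36.0 to 74.2 CPM in dcKO_Nex-Cre cortex (log2 fold change 0.04, SE 0.20). Cd200, a neuronal signal that restrains microglia, was at 345 to 398 and 318 to 383 CPM. Apoe, a lipid carrier and ligand of Trem2, was at 181 to 287 and 231 to 324 CPM, the inhibitory receptor gene Sirpa at 89.0 to 135 and 102 to 160 CPM, and Tgfbr1, whose pathway maintains microglial identity, at 101 to 126 and 96.2 to 129 CPM. The groups of these 5 genes overlapped.

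Microglia of early postnatal white matter pass through an amoeboid, phagocytic state marked by lysosomal genes, of which 25 were listed and 21 tested. Again edgeR called 0, and DESeq2 called 1, Gpnmb, of the 494 genes it called in all. At an unadjusted p under 0.05 there were 6 higher and 0 lower, where 6.59% and 7.05% of all genes tested passed. Their median log2 fold change was 0.25. The cathepsin genes Ctsb, Ctsd and Ctsl, which every cell with lysosomes expresses, had log2 fold changes of 0.25, 0.30 and 0.23 (SE 0.098, 0.098 and 0.10, adjusted p = 0.298, 0.214 and 0.353), and the lipid chaperone Fabp5 stood at -0.0047 (SE 0.093).

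Gpnmb, a glycoprotein of phagocytic cells named after its values were seen, was at 4.94, 5.36, 4.58 and 5.15 CPM in control and at 7.61, 10.8, 25.3 and 9.19 CPM in dcKO_Nex-Cre 1 to 4 (log2 fold change 1.40, SE 0.33, adjusted p = 0.0874). Spp1, or osteopontin, named in the same way, was at 37.8 to 52.3 CPM in control and at 52.2, 53.1, 122 and 79.8 CPM in the mutant (log2 fold change 0.79, SE 0.25, adjusted p = 0.203). In both genes dcKO_Nex-Cre 3 was highest, as it was for C1qa, C1qb and C1qc. Without that library the log2 fold change of Gpnmb was 0.88 and that of Spp1 was 0.47, and C1qb stood at 0.41.

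Of 26 inflammatory and interferon genes 17 were tested and 0 were called by edgeR or DESeq2, with a median log2 fold change of -0.03. At an unadjusted p under 0.05, 2 were higher (Nfkbia and Ifit2) and 1 lower (Oasl2), where 6.59% and 7.05% of all genes tested passed. Nfkbia and Oasl2 were named after their values were seen. Stat2, which transmits interferon signals, was at 37.5 to 41.3 and 36.6 to 43.2 CPM. The interferon target Ifit2 was at 17.0 to 22.1 and 23.8 to 26.4 CPM (log2 fold change 0.30, adjusted p = 0.206), whereas the class I genes H2-D1 and B2m were at 17.2 to 23.9 and 21.0 to 22.4 CPM, and at 16.6 to 27.4 and 16.3 to 23.0 CPM. Values of this list lay on both sides of 0.

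Macrophages of the meninges and vessels also express C1q and Csf1r. Of 12 border macrophage markers 8 were tested. With edgeR 0 were called, and DESeq2 called 1 (Stab1) of the 494 genes it called in all. The 12 markers summed to 31.5, 34.9, 28.0 and 28.7 CPM in control and to 31.9, 58.4, 42.5 and 37.6 CPM in dcKO_Nex-Cre 1 to 4. At an unadjusted p under 0.05, 3 were higher (Stab1, F13a1 and Lyve1, named after their values were seen), where 6.59% of all genes tested were higher. All 8 had positive log2 fold changes with a median of 0.45. No marker was at 0 in every library, while Cbr2 was at 0 in 2 libraries, Cd209f in 5 and Folr2 in 1. The mannose receptor gene Mrc1, a defining marker, was at 2.50 to 4.26 and 2.97 to 6.74 CPM (log2 fold change 0.41, adjusted p = 0.542), and the scavenger receptor gene Stab1 at 9.99 to 13.1 and 13.4 to 18.7 CPM (log2 fold change 0.49, adjusted p = 0.137). Mrc1 was also named after its values were seen.

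The border macrophage sum was above the control range in dcKO_Nex-Cre 2, 3 and 4. In dcKO_Nex-Cre 1, where C1qb was at 25.9 CPM, it lay within the control range. Markers of meningeal fibroblasts summed to 134 to 183 CPM in control and to 126, 242, 156 and 132 CPM in the mutant, highest in dcKO_Nex-Cre 2, which also had the highest border macrophage sum. Without that library C1qb was at 0.48, C1qc at 0.49 and P2ry12 at -0.51 on the log2 scale. Choroid plexus markers ran from 24.6 to 1350 CPM in control and from 5.16 to 561 CPM in dcKO_Nex-Cre cortex, with dcKO_Nex-Cre 1, 3 and 4 below every control. The part of these cells in the differences was not tested.

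**Figure D5:**
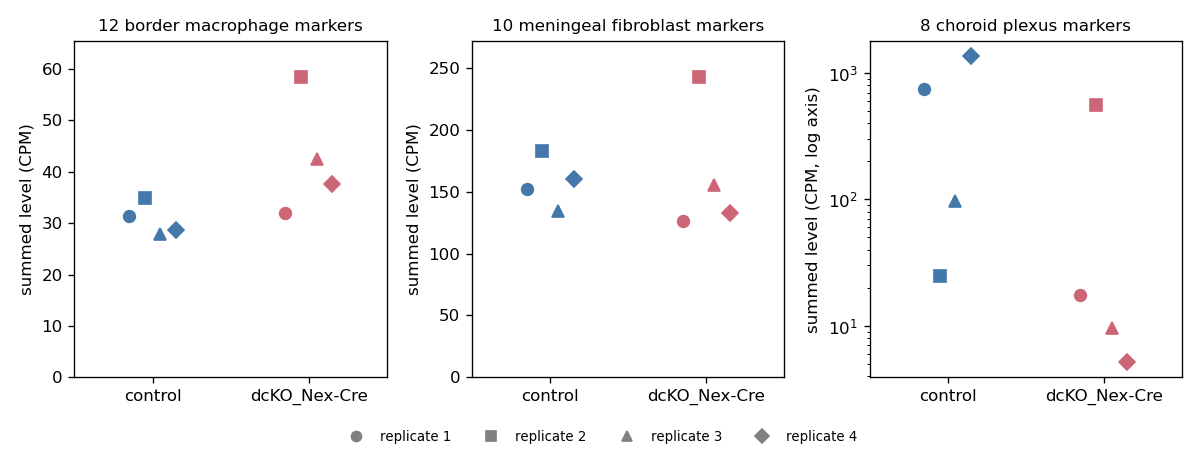
Summed CPM of border macrophage (left), meningeal fibroblast (middle) and choroid plexus markers (right, log axis) in each control (blue) and dcKO_Nex-Cre (red) library, with marker shape for the replicate number. The border macrophage sum is 28.0 to 34.9 in control and 31.9 to 58.4 in dcKO_Nex-Cre cortex, where replicate 2 is highest, as it is for the meningeal sum at 242.

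Markers of the other cortical cell types included called genes as well. Neurod6, the locus that carries Cre in the Nex-Cre line, fell by 0.74 on the log2 scale (edgeR adjusted p = 0.0192). Cspg4, the NG2 proteoglycan of oligodendrocyte precursors and pericytes, rose by 0.56 (adjusted p = 0.0355). Of the endothelial, pericyte, interneuron, meningeal, astrocyte and choroid plexus lists 12, 11, 11, 10, 13 and 6 genes were tested. These lists had 0 calls with edgeR, and DESeq2 called 3 lower (Rgs5, Sst and Fabp7, named after their values were seen). Over all genes DESeq2 called 494. At an unadjusted p under 0.05, 4 genes of these lists were higher and 5 lower, where 6.59% and 7.05% of all genes tested passed.

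The pattern of C1qb over the 8 libraries was compared with that of 12035 genes of at least 100 counts on average, as the root mean square difference of centred log2 CPM. The nearest were Me3 (0.057), a mitochondrial malic enzyme, Vcan (0.087), a matrix proteoglycan, Steap2 (0.091), a metalloreductase, Ctsf (0.093), a lysosomal cathepsin, and Rtl5 (0.096), a retrotransposon-derived gene, against a median of 0.279 over all genes compared. C1qc at 0.125 and C1qa at 0.134 were farther off, and P2ry12 lay at 0.541. Ctsf was higher by 0.38 (edgeR adjusted p = 0.0348) and Rtl5 by 0.53 (adjusted p = 0.00508). These nearest genes were picked for a pattern close to that of C1qb, its group difference included. Their direction followed from that choice, and nothing is read from these calls. Nearest to Csf1r were Slc16a14 (0.050), Samhd1 (0.063), Rab27b (0.067), Mfap3l (0.069) and Pcdhb18 (0.069), none of them called, and C1qa lay at 0.136.

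The genes that flank the C1q cluster on chromosome 4 did not share its pattern of values. Ephb2, the nearest tested gene on one side, and Epha8 on the other were named for their position. Ephb2 was at 101 to 123 CPM in control and 84.2 to 146 CPM in dcKO_Nex-Cre cortex (log2 fold change 0.06, SE 0.14). Epha8 was at 14.4 to 18.5 and 9.07 to 18.4 CPM (log2 fold change -0.38, SE 0.19, edgeR adjusted p = 0.409). Overlapping annotation touched 3 of the 10 genes: 873 exon bases of Csf1r are shared with Hmgxb3 on the opposite strand, 78 of Cx3cr1 with Gm33858 and 9 of P2ry12 with Med12l. The library kit does not mark strand, so reads of such stretches cannot be told apart. Hmgxb3 had a log2 fold change of 0.09 and Med12l of -0.13, and neither was called.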

How the data were processed

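The authors deposited 1 table of raw gene counts per library (Ensembl identifiers, whole numbers, not normalized) made from TruSeq libraries of TRIzol-extracted total RNA. Per the labels the genome build was mm10. The aligner, the counter and the annotation are not given in the sources used here. Symbols came from GENCODE for GRCm38 (48349 of 48709 identifiers matched).

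Counts were fitted with edgeR 4.0.16 (R 4.3.3; filterByExpr, TMM, robust quasi-likelihood F test, two-sided, Benjamini-Hochberg over 16287 genes, threshold 0.05) on 4 control and 4 dcKO_Nex-Cre libraries. Calls with DESeq2 1.42.0, other filters and scalings, a replicate block, lane tag 2 alone and each library left out were alternatives. The procedure was tested on simulated counts. Replicate numbers did not pair the samples (correlations of deviations from the group means -0.138 to 0.135). Within each group no pair of libraries looked like copies, as their counts differed by at least 3.76 times sampling noise (chi-square per degree of freedom). Pairs across groups were not compared.

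The 10 genes, the other lists and the tests were chosen with earlier results of these data known. Named were the 10 genes, the called genes and the up to 4 most abundant of each list described (of the marker lists only called genes), the 5 closest patterns, overlapping genes and those said to be named after their values were seen. A few genes that the rule names are not reported here. Totals between 17958641 and 35191912 reads limit the precision of genes with few counts.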

Additional observations from a re-analysis of the deposited data

Results flagged for a closer look

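In groups of 4 libraries, a library far from the other 3 by Dixon's criterion turned up in 8 of 146 groups of values checked, where chance gives about 1 in 20, or 7.3. Among the 10 microglial genes, Trem2 was at 7.21 CPM in dcKO_Nex-Cre 3 against 5.76 to 5.97 CPM in the other mutant libraries. In dcKO_Nex-Cre 4, the library with 6.15% mitochondrial reads, Cfp was at 9.81 CPM against 5.78 to 6.20 CPM and C4a at 2.64 against 1.34 to 1.51 CPM. Tlr7 was at 4.91 CPM in dcKO_Nex-Cre 3 against 3.07 to 3.10 CPM, and at 2.62 CPM in control 2 against 2.02 to 2.13 CPM. Cbln4 was at 6.05 CPM in dcKO_Nex-Cre 1 against 3.22 to 3.63 CPM. C1qtnf6 was at 8.97 CPM in control 2 against 12.6 to 13.3 CPM, and C1qtnf4 at 15.8 CPM in control 1 against 11.4 to 11.9 CPM. The causes were not tested.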

How the results depend on the processing

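Calls depended on the processing more than fold changes did. Against 144 genes called in all, 1 of the 10 microglial genes, 1 complement gene and 0 further microglial genes, DESeq2 called 494 in all and 3 of the 10, no filter on low counts gave 259, 3 of the 10 and 2 complement genes, and lane tag 2 alone gave 248 in all and 0 complement genes. With the replicate block, 54 genes, 0 of the 10 and 0 complement genes were called, though replicate numbers did not pair the samples and no control correlated best with its own number. Without control 2 and dcKO_Nex-Cre 4, a setting added after seeing the data, 1794 genes, 4 of the 10, 5 complement and 5 further microglial genes were called, and the median of the 10 went from 0.02 to 0.14. Leaving out 1 library gave 18 to 1275 genes, 0 to 4 of the 10, 0 to 4 complement and 0 to 3 further microglial genes, and a median of -0.02 to 0.11. The upper counts came without dcKO_Nex-Cre 4. Of these 8 fits Smarcc2 and Rtl5 passed in 8, Cbln2 in 5, Neurod6 in 3, Smarcc1 and Cbln4 in 2, and Cspg4 and Ctsf in 1. The causes were not tested.

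Among the genes named here, signs turned in genes that were not called. Within lane tag 2 these were Masp1 (-0.032), Sez6l (0.035) and Tgfbr1 (0.12). Without the libraries rich in mitochondrial reads they were Masp1 (-0.15) and Sez6l (0.049), and without a filter Fabp5 (0.0046). Leaving out 1 library, the log2 fold changes ran from -0.070 to 0.12 for Masp1, -0.17 to 0.10 for Sez6l, -0.13 to 0.013 for Tgfbr1, -0.083 to 0.049 for Fabp5, -0.013 to 0.063 for Stat2, -0.11 to 0.12 for C1qtnf6, -0.16 to 0.19 for Cx3cl1, -0.46 to 0.016 for C4a and -0.073 to 0.18 for Ephb2. Among the 10 microglial genes, over the 15 alternatives both signs were taken by Cx3cr1 (-0.04 to 0.11), Tmem119 (-0.20 to 0.19), Trem2 (-0.09 to 0.10) and Tyrobp (-0.19 to 0.11). Few counts limit Tmem119, Aif1 and most complement genes.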
